A study of Mus musculus with 6 samples.

Results

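Retinoid metabolism and signalling was followed through 9 genes in the inguinal subcutaneous white adipose tissue (SC-WAT) of mice with and without the zinc-finger transcription factor EGR1. The 9 genes were *Dhrs9*, *Dhrs3* and *Rdh10*, which interconvert retinol and retinal, *Aldh1a1*, *Aldh1a2* and *Aldh1a3*, which make retinoic acid, the nuclear receptor genes *Rarb* and *Rxrg*, and *Cyp26b1*, which clears retinoic acid. They were chosen by their place in the pathway and with their counts in these same 6 mice already known. Every genotype difference given for them is therefore a description, and no test outcome listed for them is read as evidence. They are 9 of the 47069 gene identifiers counted, and all 9 were among the 17667 genes that passed a filter on low counts.

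RNA came from whole fat pads of 3 *Egr1*+/+ and 3 *Egr1*-/- mice, with 1 library per mouse. All were females of 2 weeks of age on the C57BL/6 strain (C57BL/6J in the study's methods), kept without treatment. The study's methods give several litters, with 1 mouse of each genotype being littermates, and do not say which replicates these were. The *Egr1*-/- mice carry a LacZ cassette and a frameshift ahead of the part that encodes the DNA-binding domain, and lack the functional factor from conception in every cell type, so the comparison is not restricted to adipocytes. Whole pads contain vessels, stroma, immune cells, nerves and pieces of neighbouring tissue beside adipocytes, and in such samples fewer cells of a type and less RNA per cell cannot be told apart.

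Vitamin A circulates as retinol and is stored in fat as retinyl esters. Retinol is oxidized reversibly to retinal by dehydrogenases of the SDR and ADH families, and retinal is oxidized irreversibly to retinoic acid by the ALDH1A enzymes. Retinoic acid binds RAR receptors, which act on DNA as pairs with RXR receptors, and CYP26 enzymes break it down. In adipose tissue retinoids are known to restrain the early steps of adipocyte formation and to act on the thermogenic gene *Ucp1*, and mice lacking *Aldh1a1* are known for a more thermogenic white fat.

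The DNA ahead of annotated transcript starts of these genes is shown first, because RAR and RXR pairs bind direct repeats of a 6-base half-site and EGR1 binds a GC-rich site. RefSeq promoter windows on GRCm38.p6, from 250 bases before to 50 after a transcript start, were found for 7 of the 9 genes, 11 windows in all. Searched on both strands, the half-site AGGTCA was in 2 of the 11 windows and in 16.3% of all 32851 mouse windows. A wider search that added its variants AGTTCA plus GGGTCA plus GGTTCA found 5 of the 11 and 43.7% of all windows. The EGR site GCGNGGGCG was in 1 of the 11, that of *Dhrs3*, and in 5.55% of all windows. Direct repeats were searched with the half-site or any of these variants. Those with 5 bases between, written DR5, were in 1 of the 11 windows, that of *Rarb*, and in 0.0974% of all windows. Repeats with 1 or 2 bases between were in none of the 11. The following 30-base stretches show 1 match from each of 5 windows, in capitals, chosen to include the EGR site and the DR5 repeat, and are read 5′ to 3′ along the strand of the gene. Further half-sites of *Rxrg* and *Rarb* are not printed. The stretches of *Dhrs9* and *Dhrs3* lie ahead of the whole gene, while those of *Aldh1a1*, *Rarb* and *Rxrg* lie inside the span of the gene, ahead of an internal start, and that of *Rarb* overlaps a *Rarb* exon in the GENCODE annotation. A match is a description of letters, not of bound protein.
*Dhrs9*, chr2:69380362-69380391, plus strand, with AGGTCA on the opposite strand: tttggaaacctgTGACCTacaatctccccg
*Dhrs3*, chr4:144892737-144892766, plus strand, with the EGR site: gcgggcgcgcGCGAGGGCGagctgtgcacg
*Aldh1a1*, chr19:20601907-20601936, plus strand, with GGGTCA on the opposite strand: ccgatatgcaaaTGACCCttagtgcatgca
*Rarb*, chr14:16575506-16575535, minus strand, with the DR5 repeat: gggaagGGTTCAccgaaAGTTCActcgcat
*Rxrg*, chr1:167618165-167618194, plus strand, with AGGTCA: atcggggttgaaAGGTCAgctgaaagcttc

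Each library held 29661984 to 42357981 counts on genes, and mitochondrial genes took 50.0 to 66.3% of them. *Egr1* itself was counted 353, 241 and 711 times in *Egr1*+/+ replicates 1, 2 and 3, against 103, 84 and 57 times in *Egr1*-/- replicates 1, 2 and 3, so each mouse sat on the side its label gives. As CPM, the counts scaled to a common library size, its mean was 11.6 ± 4.39 in *Egr1*+/+ and 2.55 ± 0.640 in *Egr1*-/- mice (SD, n = 3), a log2 fold change of -2.19 with a standard error of 0.30 and an adjusted p = 0.0878 in edgeR's quasi-likelihood test. Summed adipocyte markers lay at 5479 to 5902 CPM in *Egr1*+/+ and 4293 to 5213 CPM in *Egr1*-/- mice, so the labelled tissue was present in all 6.

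In *Egr1*+/+ SC-WAT the 9 genes spanned a wide range of levels per length of exon. *Dhrs3*, the retinal reductase, had the highest level at 13.1 ± 2.47 CPM per kilobase (SD, n = 3), followed by *Rxrg* at 6.02 ± 0.576 CPM per kilobase. *Aldh1a1* at 3.19 ± 0.984 and *Aldh1a3* at 3.08 ± 0.651 CPM per kilobase came next and overlapped between mice, and *Rdh10* stood alone below them at 1.58 ± 0.0866 CPM per kilobase. The 4 lowest, *Dhrs9* at 0.870 ± 0.345, *Rarb* at 0.776 ± 0.199, *Aldh1a2* at 0.625 ± 0.117 and *Cyp26b1* at 0.419 ± 0.133 CPM per kilobase, each overlapped the next in the order. The order depends on the length used. With the longest transcript in place of all exons, *Aldh1a1* stood above *Rxrg* and *Rarb* above *Dhrs9*.

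**Figure D1:**
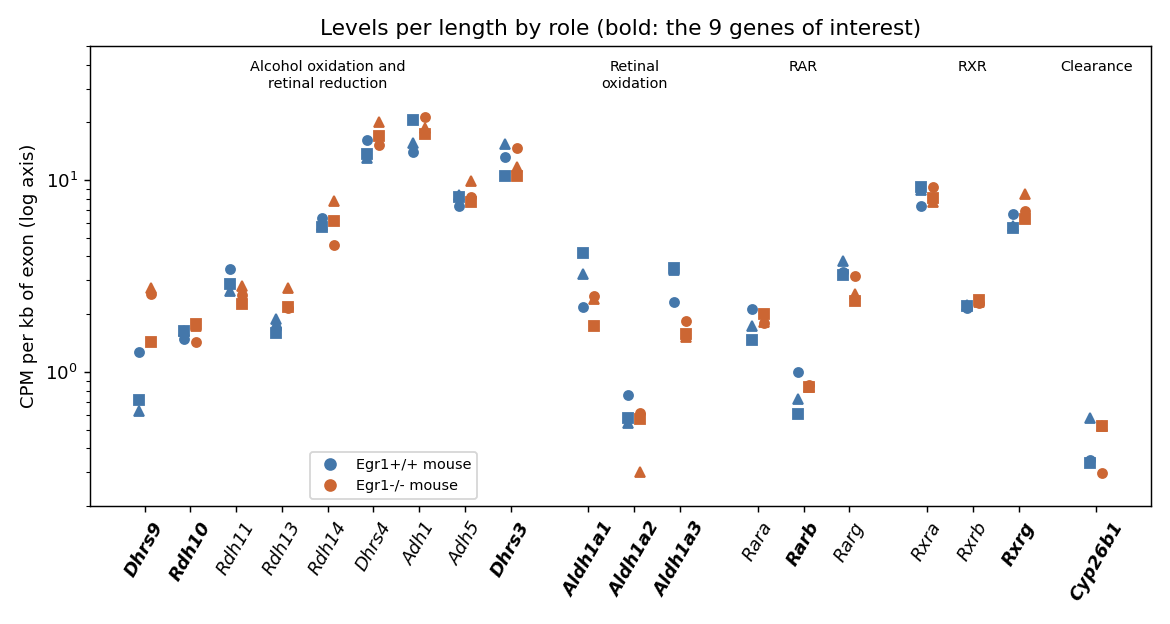
Level of each retinoid gene in each mouse, in CPM per kilobase of exon on a log axis, grouped by role, with Egr1+/+ mice in blue and Egr1-/- mice in orange and circles, squares and triangles for replicates 1, 2 and 3. Names in bold are the 9 genes described, of which Dhrs3 had the highest level (13.1 CPM per kilobase in Egr1+/+ mice) and Cyp26b1 the lowest (0.419).

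Across the 9 genes, mean CPM was higher in *Egr1*-/- than in *Egr1*+/+ mice for 5 and lower for 4, and for 7 of the 9 the mice of both genotypes overlapped. *Dhrs9* was higher in all *Egr1*-/- mice and *Aldh1a3* lower in all *Egr1*-/- mice. Over all genes tested, 8.15% were higher and 8.10% were lower in every *Egr1*-/- mouse. In edgeR none of the 9 passed the adjusted threshold of 0.05, which 0.0170% of all tested genes passed. At an unadjusted p under 0.05 there were 3 of the 9 (10.7% of all genes), with *Aldh1a3* and *Aldh1a1* lower (5.60% of all genes) and *Dhrs9* higher (5.06% of all genes). DESeq2 put *Dhrs9* and *Aldh1a3* past its adjusted threshold, out of the 8 to which it gave an adjusted p, against 2.89% of all genes to which it gave one. As the genes were chosen on these mice, nothing is read from these counts.

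**Figure D2:**
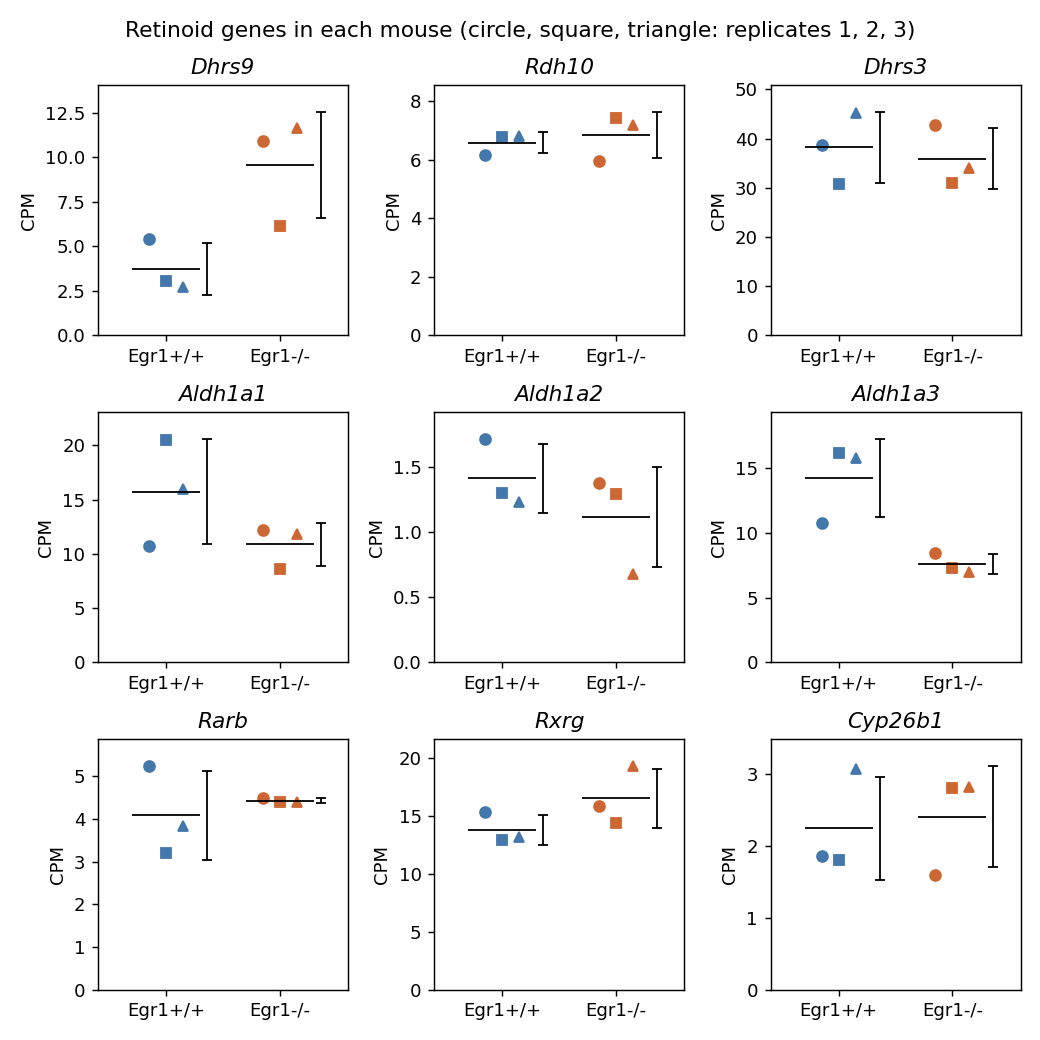
CPM of the 9 retinoid genes in each mouse, with 1 panel per gene, a linear axis from 0, a bar at the mean of each genotype and an error bar of 1 SD beside it (n = 3 mice per genotype). Dhrs9 is higher and Aldh1a3 lower in all Egr1-/- mice, and the genotypes overlap in the other 7 panels.

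Among the enzymes that interconvert retinol and retinal, *Dhrs9* was the gene with the largest difference between genotypes. It encodes a short-chain dehydrogenase that oxidizes retinol and also 3-hydroxysteroids, and lies at chr2:69380445-69404533 on the plus strand of GRCm38. Its level was 5.41, 3.06 and 2.69 CPM in *Egr1*+/+ replicates 1, 2 and 3, and 10.9, 6.17 and 11.7 CPM in *Egr1*-/- replicates 1, 2 and 3. Every *Egr1*-/- mouse was above every *Egr1*+/+ mouse, though *Egr1*-/- replicate 2 lay only slightly above *Egr1*+/+ replicate 1. The means were 3.72 ± 1.48 and 9.58 ± 2.98 CPM (SD, n = 3), a ratio of 2.57 and a log2 fold change of 1.37 with a standard error of 0.32, on counts of 92 to 186 and 191 to 363 per mouse. Leaving out 1 mouse at a time gave log2 fold changes from 1.17, without *Egr1*+/+ replicate 3, to 1.72, without *Egr1*+/+ replicate 1.

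*Rdh10*, which encodes the retinol dehydrogenase needed for retinoic acid in the embryo, showed close values in both genotypes. It was at 6.17, 6.79 and 6.80 CPM in *Egr1*+/+ and 5.94, 7.42 and 7.18 CPM in *Egr1*-/- mice. The lowest and the highest values were both in *Egr1*-/- mice, and the log2 fold change was 0.06 with a standard error of 0.16. *Rdh10* had the smallest spread among *Egr1*+/+ mice of the 9, with an SD of 5.47% of the mean.

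*Dhrs3*, whose product reduces retinal back to retinol and works in a complex with RDH10, was at 38.7, 30.8 and 45.2 CPM in *Egr1*+/+ and 42.8, 30.9 and 34.0 CPM in *Egr1*-/- mice. The *Egr1*-/- values all fell within the *Egr1*+/+ range, and the log2 fold change was -0.09 with a standard error of 0.17. Set against each other within a mouse, the level per length of *Dhrs9* was 0.0958, 0.0680 and 0.0407 of that of *Dhrs3* in *Egr1*+/+ mice, against 0.174, 0.136 and 0.234 in *Egr1*-/- mice. The ratio did not overlap between genotypes, and *Dhrs3* remained the more abundant of the pair in each mouse. Against *Rdh10*, the level per length of *Dhrs9* was 0.853, 0.438 and 0.385 in *Egr1*+/+ and 1.78, 0.807 and 1.58 in *Egr1*-/- mice, and that ratio overlapped.

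Of the retinal dehydrogenases, *Aldh1a3* differed most. It encodes an enzyme that makes retinoic acid with high efficiency, and lies at chr7:66390890-66427517 on the minus strand. It was at 10.7, 16.1 and 15.7 CPM in *Egr1*+/+ replicates 1, 2 and 3, and at 8.46, 7.26 and 6.98 CPM in *Egr1*-/- replicates 1, 2 and 3. The *Egr1*-/- mice lay close together and below all *Egr1*+/+ mice, the nearest of which was replicate 1. The means were 14.2 ± 3.01 and 7.57 ± 0.787 CPM (SD, n = 3), a ratio of 0.533 and a log2 fold change of -0.91 with a standard error of 0.18. Leaving out 1 mouse at a time kept the log2 fold change between -1.09 and -0.81.

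*Aldh1a1*, which encodes the main retinal dehydrogenase of many adult tissues, lies at chr19:20492715-20643465 on the plus strand. It was at 10.8, 20.5 and 16.0 CPM in *Egr1*+/+ and 12.2, 8.62 and 11.9 CPM in *Egr1*-/- mice. *Egr1*+/+ replicate 1 sat within the *Egr1*-/- values and the other *Egr1*+/+ mice above them. The log2 fold change was -0.53 with a standard error of 0.23, and it moved from -0.75 without *Egr1*+/+ replicate 1 to -0.30 without *Egr1*+/+ replicate 2. Without *Egr1*+/+ replicate 1, *Aldh1a1* as well as *Aldh1a3* was lower in every *Egr1*-/- mouse, which made 2 of the 9 genes in place of 1. Full separation is reached more easily with fewer mice. The share of all genes separated in that setting was not computed, so nothing is read from this count. Of 50-base stretches of the *Aldh1a1* transcripts, 3.06% also occur in the neighbouring paralogue *Aldh1a7*, so a small part of the counts could be shared. *Aldh1a7* itself had a log2 fold change of 0.04.

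*Aldh1a2*, the enzyme that supplies most retinoic acid to the early embryo, had few counts, 21 to 59 per mouse. It was at 1.72, 1.30 and 1.23 CPM in *Egr1*+/+ and 1.38, 1.29 and 0.679 CPM in *Egr1*-/- mice. The groups overlapped, and the log2 fold change of -0.34, with a standard error of 0.35, became -0.08 without *Egr1*-/- replicate 3. The 3 retinal dehydrogenase genes together had 5.27, 8.22 and 7.18 CPM per kilobase in *Egr1*+/+ and 4.92, 3.89 and 4.22 CPM per kilobase in *Egr1*-/- mice. The sum was lower in all *Egr1*-/- mice, with a mean of 4.34 ± 0.526 against 6.89 ± 1.50 CPM per kilobase (SD, n = 3). *Aldh1a3* made up 44.7 ± 2.48% of that sum in *Egr1*+/+ and 37.9 ± 2.34% in *Egr1*-/- mice, and *Aldh1a1* 45.6 ± 4.55% and 50.7 ± 6.07%. Within a mouse, *Aldh1a3* was at 1.07, 0.843 and 1.05 of the level of *Aldh1a1* in *Egr1*+/+ and 0.741, 0.901 and 0.629 in *Egr1*-/- mice, with overlapping groups. These values depend on the length used. With the longest transcript, *Aldh1a1* stood at 6.67 and *Aldh1a3* at 4.13 CPM per kilobase in *Egr1*+/+ mice.

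**Figure D3:**
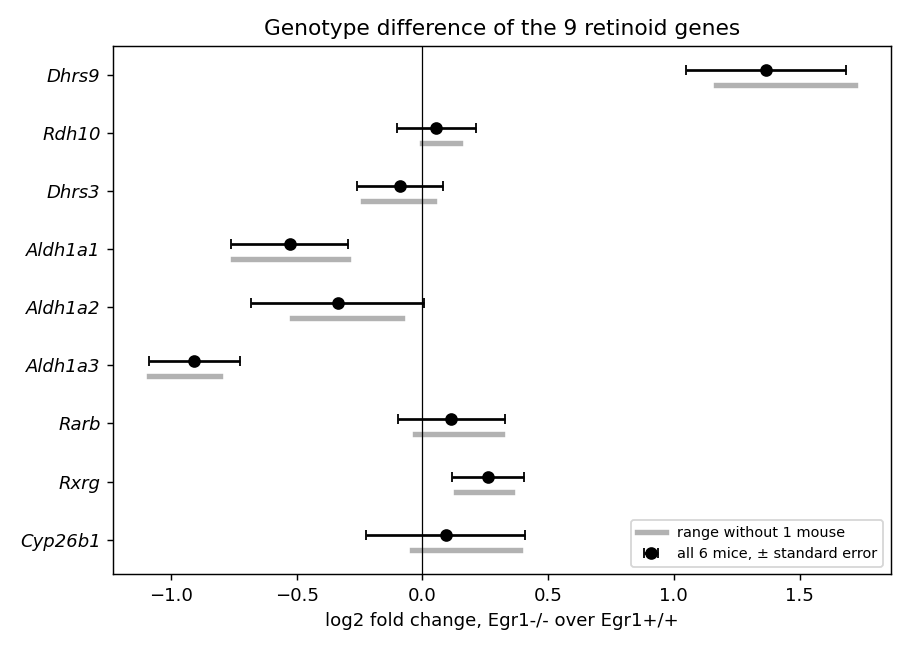
Log2 fold change in CPM of each of the 9 retinoid genes, Egr1-/- over Egr1+/+, with its standard error from the fit to all 6 mice, above a grey line for the range with single mice left out. Dhrs9 (1.37) and Aldh1a3 (-0.91) lie farthest from 0 on either side, and Dhrs3, Rdh10, Rarb and Cyp26b1 change sign when single mice are left out.

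The receptor genes differed little between genotypes. *Rarb*, a receptor gene that retinoic acid itself induces through the DR5 repeat printed above, was at 5.24, 3.20 and 3.83 CPM in *Egr1*+/+ and 4.50, 4.39 and 4.40 CPM in *Egr1*-/- mice. The *Egr1*-/- mice were nearly equal and lay inside the range of the *Egr1*+/+ mice, with a log2 fold change of 0.12 and a standard error of 0.21. Of its 50-base stretches, 34.1% also occur on the opposite strand in other genes, 30.8% in the overlapping gene *Top2b*. The library kit keeps strand, but the strand setting of the counting is not given in the sources used here, so reads of *Rarb* and *Top2b* cannot be told apart with certainty.

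*Rxrg*, the RXR gene with the narrowest tissue range and a known site of expression in skeletal muscle, was at 15.3, 12.9 and 13.2 CPM in *Egr1*+/+ and 15.9, 14.4 and 19.3 CPM in *Egr1*-/- mice. *Egr1*-/- replicate 3 was highest, and *Egr1*-/- replicate 2 lay below *Egr1*+/+ replicate 1, so the groups overlapped. The log2 fold change was 0.26 with a standard error of 0.14, and 0.13 without *Egr1*-/- replicate 3. Summed markers of skeletal muscle were at 852, 3091 and 181 CPM in *Egr1*+/+ and 69.4, 247 and 2151 CPM in *Egr1*-/- mice. Of the 2 mice with the most muscle RNA, *Egr1*+/+ replicate 2 had the lowest *Rxrg* and *Egr1*-/- replicate 3 the highest. With the muscle sum as a covariate the log2 fold change of *Rxrg* was 0.30, and the part of muscle RNA in the level of *Rxrg* in single mice was not tested.

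The makeup of each receptor family was set out per length of exon, and the shares depend on the length used. Of the summed RAR level, *Rarb* was 12.9 ± 2.26% in *Egr1*+/+ and 15.6 ± 0.757% in *Egr1*-/- mice, and *Rarg* was the most abundant member with 57.6 ± 5.31% and 49.6 ± 4.47%. Of the summed RXR level, *Rxrg* was 36.1 ± 4.45% in *Egr1*+/+ and 40.3 ± 4.74% in *Egr1*-/- mice, and *Rxra* 50.7 ± 4.60% and 46.6 ± 4.42% (all SD, n = 3). *Rxrg* was the second RXR gene in level in 5 mice and the first in *Egr1*-/- replicate 3, while *Rarb* was the least abundant RAR gene in each mouse.

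*Cyp26b1*, which encodes the retinoic acid hydroxylase of many peripheral tissues, was at 1.86, 1.80 and 3.06 CPM in *Egr1*+/+ and 1.59, 2.81 and 2.81 CPM in *Egr1*-/- mice. One mouse of each genotype lay apart from the other mice of its group, in opposite directions. The log2 fold change was 0.09 with a standard error of 0.32, from -0.04 without *Egr1*+/+ replicate 2 to 0.39 without *Egr1*+/+ replicate 3. The related hydroxylase genes *Cyp26a1* and *Cyp26c1* had at most 5 counts in any mouse and were not tested, so *Cyp26b1* was the only one of the 3 with enough counts to follow.

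The other genes of the pathway were taken from 6 lists holding 61 genes, of which 43 were tested. None was called by edgeR after adjustment. An unadjusted p under 0.05 was found for 10, of which 5 were higher and 5 lower in *Egr1*-/- mice. That is 23.3% of the 43, beside 10.7% of all genes tested, and the number was 6 without *Egr1*-/- replicate 3. Their median log2 fold change was 0.04, beside 0.00 over all genes tested, with 23 higher and 20 lower. DESeq2 called 2 of them, *Ces1f* and *Rarres2*, both lower, beside 2.89% of all genes to which it gave an adjusted p. It gave none to some of the 43. The same 2 genes were called by edgeR with no filter on low counts (adjusted p = 0.000806 and 0.000864). That setting called 552 of 38261 genes, against 3 of 17667 in the main fit, so it is no separate evidence for the 2 genes. Neither was called with the replicate number as a block (edgeR adjusted p = 0.225 and 0.303).

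Among retinol carriers 5 of 10 genes were tested, 4 lower and 1 higher. *Rbp7* had a log2 fold change of -0.55 and *Fabp5*, a fatty-acid binding protein that also carries retinoic acid, one of -0.34, with overlapping groups in both.

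Among the other retinol and retinal oxidoreductases 13 of 19 genes were tested, 9 higher and 4 lower. *Retsat*, which saturates retinol and is known from adipocytes, was at 25.12, 28.3 and 19.0 CPM in *Egr1*+/+ and 35.6, 29.4 and 36.6 CPM in *Egr1*-/- mice. *Retsat* and *Rdh13*, a mitochondrial retinol dehydrogenase, were higher in every *Egr1*-/- mouse. Their log2 fold changes were 0.49 (standard error 0.16) and 0.45 (standard error 0.14), with edgeR adjusted p = 0.325 and 0.305. *Dhrs4* had a log2 fold change of 0.28 and overlapping groups.

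Among genes of retinyl ester storage, ester release and carotenoid cleavage 8 of 10 were tested, 4 higher and 4 lower. *Ces1f*, a carboxylesterase, had the lowest p of the pathway genes. It was at 42.1, 55.6 and 40.0 CPM in *Egr1*+/+ and 27.1, 29.02 and 27.3 CPM in *Egr1*-/- mice, with a log2 fold change of -0.72 and a standard error of 0.14 (edgeR adjusted p = 0.160, DESeq2 adjusted p = 0.00193). *Dgat1*, which esterifies retinol as well as diacylglycerol, and *Lipe*, the hormone-sensitive lipase that also cleaves retinyl esters, were higher in every *Egr1*-/- mouse. Their log2 fold changes were 0.49 (standard error 0.14) and 0.36 (standard error 0.13), with edgeR adjusted p = 0.261 and 0.378.

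Among the other receptors and their cofactors all 10 were tested, 6 higher and 4 lower. *Rarg* was at 14.1, 13.7 and 16.1 CPM in *Egr1*+/+ and 13.4, 10.04 and 10.9 CPM in *Egr1*-/- mice, lower in every *Egr1*-/- mouse with a log2 fold change of -0.35 and a standard error of 0.15 (edgeR adjusted p = 0.432). The other 9 receptor and cofactor genes had an unadjusted p above 0.05, *Ncoa3* and *Ncoa1* with the lowest among them.

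Among genes known to respond to retinoic acid 7 of 10 were tested, 3 higher and 4 lower. *Rarres2*, which encodes the adipokine chemerin, was at 105, 132 and 143 CPM in *Egr1*+/+ and 88.7, 51.8 and 88.1 CPM in *Egr1*-/- mice. All *Egr1*-/- mice were lower, with a log2 fold change of -0.73 and a standard error of 0.21 (edgeR adjusted p = 0.272, DESeq2 adjusted p = 0.0209). *Rai14* had a log2 fold change of -0.37 (edgeR adjusted p = 0.305).

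**Figure D4:**
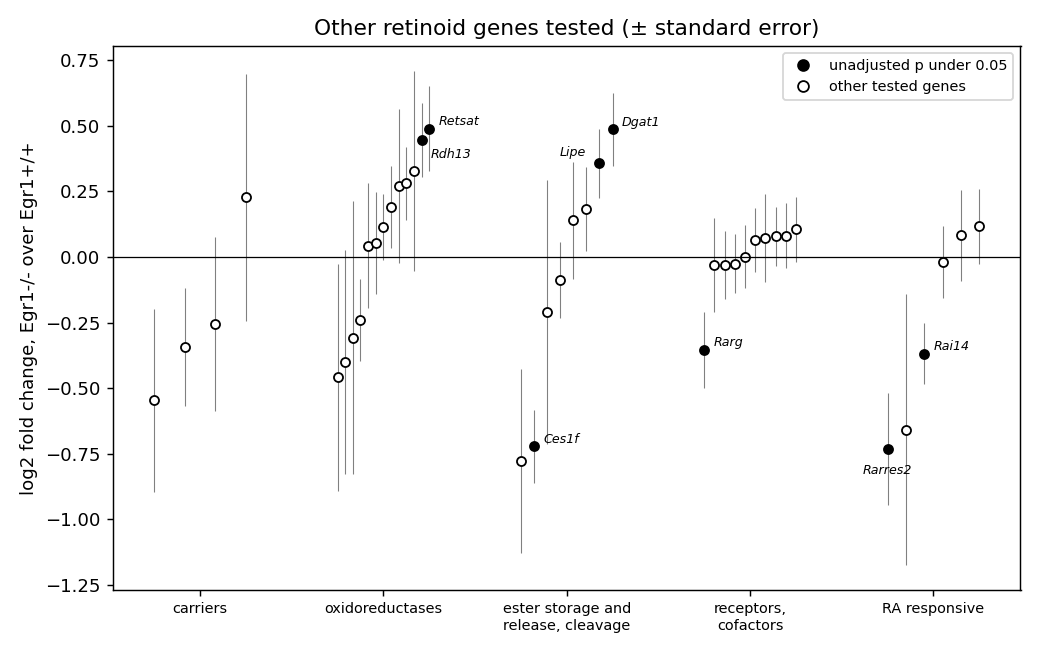
Log2 fold change, Egr1-/- over Egr1+/+, of 41 of the 43 other retinoid genes tested, in order of size within each list, with standard errors as lines and filled points for an unadjusted p under 0.05. The 8 filled points lie on both sides of 0, and edgeR called 0 of the 43 after adjustment, while DESeq2 called Ces1f and Rarres2.

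Summed markers of several cell types were separated between the genotypes, and their values stand here beside the genes that were separated too. The 5 beige adipocyte markers, *Ucp1* among them, were all higher by mean. The study had already reported all 5 as higher in these same mice, so their direction and any ratio to their sum are descriptions only. Their sum was at 488 to 637 CPM in *Egr1*+/+ and 880 to 1476 CPM in *Egr1*-/- mice, a separation in the direction of *Dhrs9*. Per 1000 CPM of that sum, *Dhrs9* was at 8.50, 6.19 and 5.52 CPM in *Egr1*+/+ and 8.75, 7.004 and 7.91 CPM in *Egr1*-/- mice, and the groups overlapped. The 4 macrophage markers were all lower by mean, with a sum of 182 to 236 CPM in *Egr1*+/+ and 121 to 167 CPM in *Egr1*-/- mice, opposite to *Dhrs9* and in the direction of *Aldh1a3*. The 4 Schwann cell and nerve markers were also all lower by mean, with a sum of 226 to 316 CPM in *Egr1*+/+ and 148 to 189 CPM in *Egr1*-/- mice. The adipocyte sum given above was lower in every *Egr1*-/- mouse too, both again in the direction of *Aldh1a3*. Of the 5 adipocyte markers, 4 were lower and 1, *Plin1*, was higher (log2 fold change 0.11). *Fabp4*, the largest part of the adipocyte sum, overlapped between genotypes.

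The 7 fibroblast and adipose progenitor markers were all lower by mean in *Egr1*-/- mice. Their sum was at 840 to 901 CPM in *Egr1*+/+ and 452 to 618 CPM in *Egr1*-/- mice, in the direction of *Aldh1a3* and *Aldh1a1*. *Dcn*, a matrix gene, was the largest part of that sum, at 414, 382 and 456 CPM in *Egr1*+/+ and 268, 202 and 211 CPM in *Egr1*-/- mice. The study had already reported *Dcn* as lower in these same mice, so any ratio to the sum is a description only. Per 1000 CPM of that sum, *Aldh1a3* was at 12.6, 19.2 and 17.5 CPM in *Egr1*+/+ and 13.7, 16.1 and 14.9 CPM in *Egr1*-/- mice. *Aldh1a1* on the same scale was at 12.6, 24.4 and 17.7 CPM in *Egr1*+/+ and 19.8, 19.1 and 25.4 CPM in *Egr1*-/- mice, with the higher mean then in *Egr1*-/- mice. Both overlapped between genotypes on that scale. The mean fibroblast sum in *Egr1*-/- mice was 0.592 of that in *Egr1*+/+ mice, beside 0.645 for macrophage, 0.668 for Schwann cell and 0.858 for adipocyte markers. *Aldh1a3* was not set against those other sums, so its overlap is not shown to be particular to the fibroblast markers. Epithelial markers, mammary included, summed to 2.53, 12.98 and 10.9 CPM in *Egr1*+/+ and 10.4, 8.33 and 7.44 CPM in *Egr1*-/- mice. *Egr1*+/+ replicate 1, with nearly no keratin RNA, was also the *Egr1*+/+ mouse with the lowest *Aldh1a1* and *Aldh1a3*. The same mouse had the lowest macrophage sum (182 CPM) and the highest beige (637 CPM) and Schwann cell (316 CPM) sums of its group. Of the 49 marker genes tested over all lists, edgeR called 0 after adjustment and found 22 at an unadjusted p under 0.05, beside 10.7% of all genes. DESeq2 called 15, beside 2.89% of all genes to which it gave an adjusted p. Among the 15 were all 5 beige markers and 5 of the 7 fibroblast and progenitor markers. The study's own DESeq2 comparison of these mice had already reported the 5 beige markers and *Dcn*. The number of markers called is therefore a description only. The part of these cell types in the retinoid gene differences was not tested.

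**Figure D5:**
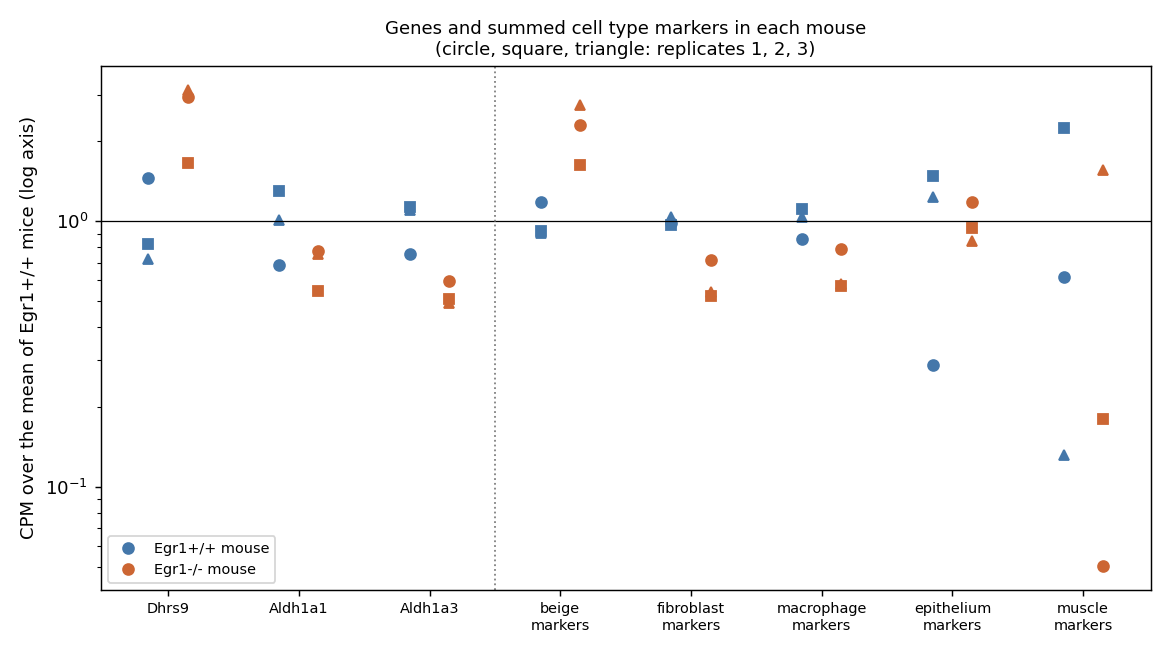
CPM of Dhrs9, Aldh1a1 and Aldh1a3 (left of the dotted line) and summed CPM of cell type markers (right), each divided by its mean in Egr1+/+ mice and shown on a log axis for each mouse, with circles, squares and triangles for replicates 1, 2 and 3. The beige marker sum and Dhrs9 are higher in all Egr1-/- mice, the fibroblast and macrophage sums and Aldh1a3 are lower in all Egr1-/- mice, and the muscle sum varies widely within each genotype.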

How the data were processed

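Strand-specific, rRNA-depleted RNA-seq libraries of inguinal SC-WAT were counted by the authors, who mapped reads to GRCm38 with TopHat2 and Bowtie2 under a GENCODE annotation and assigned them with featureCounts. They deposited raw counts per gene, without normalization. Genotypes were taken from the sample records. Identifiers were matched to GENCODE M21 without version, for 46574 of 47069. In R 4.3.3, counts were scaled by TMM, filtered with filterByExpr and tested with edgeR 4.0.16 (quasi-likelihood test, Benjamini-Hochberg adjustment over 17667 genes, threshold 0.05). The test was checked on simulated data in which only genes above the median level were changed, so the check does not cover genes below it. DESeq2 1.42.0 and limma 3.58.1 (voom) were alternatives, with other scalings, filters, a replicate block, a muscle covariate and each mouse left out in turn. CPM are TMM-scaled. A standard error is the size of a log2 fold change divided by the root of its F statistic. The members, gene lists, marker lists and tests were chosen with earlier results of these data known. Named were the 9 members and, per list, the 3 tested genes of lowest p, 2 of which are not reported here. With 3 mice per genotype, p-values set the genotype difference against the spread between mice, which edgeR estimates partly from all genes together. Promoter windows came from RefSeq. RT-qPCR, ChIP and staining were not analysed here.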

Additional observations from a re-analysis of the deposited data

How the results depend on the processing

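Over 15 other settings (scaling, filters, tests, block, covariate, single mice left out) the log2 fold changes of Dhrs9 (1.17 to 1.72), Rxrg (0.13 to 0.35), Aldh1a1 (-0.75 to -0.30), Aldh1a2 (-0.52 to -0.08) and Aldh1a3 (-1.09 to -0.81) kept their sign, while Dhrs3, Rdh10, Rarb and Cyp26b1 took both signs around 0. The number of genes called by edgeR over the whole table was 3, and it was 0 with upper-quartile scaling (1902 at an unadjusted p under 0.05), 552 with no filter, 372 in DESeq2, 1 in limma-voom, 6 with the muscle covariate, and 0 to 59 with single mice left out (59 without Egr1-/- replicate 1). Deviations from the genotype means showed little likeness between same-numbered mice (correlations -0.05, 0.08 and -0.22). With 3 mice per genotype these correlations cannot show which mice were littermates. With the replicate block edgeR called 0 genes and none of the other retinoid genes. Genes at an unadjusted p under 0.05 numbered 1884, and 2864 with no filter, or 1190 to 2366 with single mice left out. Of the 43 other retinoid genes, edgeR called 0 (10 at an unadjusted p under 0.05), and 2 were called with no filter and 2 in DESeq2, with 6 to 12 at an unadjusted p under 0.05 with single mice left out. Members lower in every Egr1-/- mouse numbered 1 to 2, and members at an unadjusted p under 0.05 numbered 2 to 3, with single mice left out. Separation is easier with fewer mice, and its share over all genes was not computed for these settings. Chosen after seeing the data, the level relative to fibroblast markers gave Aldh1a1 a log2 ratio of 0.23 and Aldh1a3 one of -0.14, and the level relative to beige and macrophage markers gave Dhrs9 0.23 and 1.94. The causes of these changes were not tested. Genes of few counts, such as Aldh1a2 and Cyp26b1, are limited by depth.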
